A study of Mus musculus with 5 samples.

Results

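The RNA described here came from brain microvascular fragments of 3 wild-type (WT) mice, which were 3 of the 5 samples sequenced in the study. The mice were male littermate controls on a C57Bl/6-J background, between 26 and 38 weeks of age, and no transgene or treatment was named for them. The other 2 samples came from heterozygous Ins2AKITA littermates, which become hyperglycemic, and no value of theirs is used. Brain tissue was digested with collagenase, pressed through strainers and incubated with magnetic beads coated with an antibody against PECAM1, an adhesion molecule of endothelial cells, and the fragments held by the beads were washed and lysed. Members were all protein-coding genes of the annotation, 22199 gene symbols, each read in the 3 WT libraries, 1 library per mouse. Levels are given as FPKM, the fragments counted per kilobase of exon relative to the library's total, which sets genes side by side per length. Every mean is followed by its SD over the 3 mice (n = 3). With only 1 group there was no comparison between conditions and no test, and every value below is a description of these 3 mice.

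A brain capillary is a tube of endothelial cells that are sealed by tight junctions and equipped with carriers for glucose, amino acids and hormones and with efflux pumps, which together form the blood-brain barrier. Pericytes lie on the tube within a shared basement membrane, smooth muscle cells replace them on arterioles, and the end-feet of astrocytes cover nearly the whole outer surface. A bead that holds the endothelial surface also holds what stays attached to it, and the RNA of such a preparation is a sum over all the cells and cell parts in it. In bulk samples of this kind, fewer cells of a type and less RNA per cell cannot be told apart.

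The files list no read numbers, so the fragments behind each library were inferred from the spacing of its low values, as 1166146, 1315749 and 2852617 in WT replicates 1, 2 and 3. At that depth 3 fragments in a transcript of 2000 nucleotides corresponded to 1.45, 1.28 and 0.594 FPKM. A gene of that length listed at 0 may be present up to about that level. In a shorter transcript the same 3 fragments correspond to a higher FPKM, so a value of 0 there says less. Such floors cover counting error only. Genes annotated as miRNA, snoRNA, snRNA or miscellaneous RNA held 96.4%, 96.25% and 57.3% of the summed FPKM and protein-coding genes 3.09%, 3.20% and 10.98%, and pseudogenes held 30.8% in WT replicate 3. Over protein-coding genes alone the libraries were close in scale, with median-ratio factors of 1.03, 1.02 and 0.964. The nuclear long noncoding RNA *Malat1* had 2260, 1880 and 755.5 FPKM, and WT replicate 3 was the lowest library for *Meg3*, *Miat*, *Neat1* and *Snhg11* as well. The long noncoding RNA *Rmst*, with 11.12, 8.61 and 8.84 FPKM, was lowest in WT replicate 2. The study describes its mice as male. The 4 Y-linked genes *Ddx3y*, *Eif2s3y*, *Kdm5d* and *Uty* were detected in every library, and *Xist* had 2.11 FPKM in WT replicate 1 and was listed at 0 in the others.

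Of the 22199 protein-coding genes, 13989 (63.0%) had a mean of at least 1 FPKM, 7834 (35.3%) of at least 10, 594 of at least 100 and 19 of at least 1000. At least 1 FPKM in every library was reached by 12756 genes, and 5294 were at 0 in all. The single libraries had 13922, 13970 and 13591 genes at 1 FPKM or more. A small number of genes carried much of the signal: 1157, 1179 and 1041 genes held 50% of the protein-coding sum. The 30 highest genes of each library alone held 11.5%, 11.9% and 11.8%. These leading genes were shared, since 27 genes were among the 30 highest of every library and 78 among the 100 highest. Over the 13989 genes the rank correlation across genes was 0.918 between WT replicates 1 and 2, 0.909 between 1 and 3 and 0.932 between 2 and 3; genes are not independent replicates.

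Mitochondrial genes headed the ranking. Subunit 1 of cytochrome c oxidase, *mt-Co1* (ENSMUSG00000064351, chromosome M from 5328 to 6872 of NCBIM37), was listed at 4453, 4877 and 4282 FPKM in WT replicates 1, 2 and 3. It was followed by *mt-Co3* with 3472 ± 173 FPKM and by *mt-Nd1* with 2764 ± 202. The next places were taken by *mt-Cytb*, *mt-Nd5*, *mt-Co2*, *mt-Nd4*, *mt-Nd6* and *mt-Nd2*, between 1936 and 2248 FPKM. With *mt-Nd3* and *mt-Atp8*, 11 of the 13 mitochondrial protein genes were among the 30 highest, and the 13 held 6.59%, 7.03% and 6.59% of the protein-coding sum. *mt-Nd3* and *mt-Atp8* have fewer than 500 nucleotides of exon, where the division by length is least reliable, and *mt-Nd6* lies opposite the end of *mt-Nd5*. Ribosomal protein genes held a similar share, 6.23%, 5.72% and 6.43% over 84 genes, and *Rpl26*, *Rpl13a*, *Rplp1*, *Rps23* and *Rps27* were among the 30 highest. These genes, and *Fth1* (ferritin heavy chain, 1210.0 ± 239 FPKM) and *Eef1a1* (a translation elongation factor, 743 ± 54.1), have near-identical pseudogene copies, so their exact level is uncertain. The mitochondrial ATP synthase subunit *Atp5b* had 921 ± 119 FPKM.

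Most of the other genes among the 30 highest were known chiefly from glia, neurons and choroid plexus. *Ttr*, the thyroxine carrier transthyretin made by the choroid plexus, had 1785, 1993 and 669 FPKM in the 3 libraries, rank 12. Of all 30 it varied most: WT replicate 3 lay far below the other mice. *Slc1a2*, the main glutamate transporter of astrocytes, had 1013, 1449 and 1507 FPKM, rank 14. *Apoe*, the lipid carrier released by astrocytes, had 1381, 1211 and 1122 FPKM. *Sparcl1*, a secreted matricellular protein, had 797, 938 and 1192. It was on none of the marker lists used below, so it was not assigned to a cell type. WT replicate 1 was the highest library for *Apoe* and the lowest for *Sparcl1*. *Glul*, glutamine synthetase, was one of the steadiest of the 30, with 845, 873 and 884 FPKM. The myelin genes *Mbp* with 981, 1129 and 1471 FPKM and *Mobp* with 783, 655 and 878 were highest in WT replicate 3. Neuronal genes stood beside them: the axonal motor *Kif5a* with 966 ± 111 FPKM, the synaptic kinase *Camk2a* with 886 ± 60.1, and the dendritic microtubule protein MAP2, listed as *Mtap2*, with 797 ± 187. *Cpe*, an enzyme that processes neuropeptides, had 789 ± 103. No gene of the endothelial, pericyte or smooth muscle lists was among the 30 highest, and the highest of them was *Slc2a1* at rank 209.

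**Figure D1:**
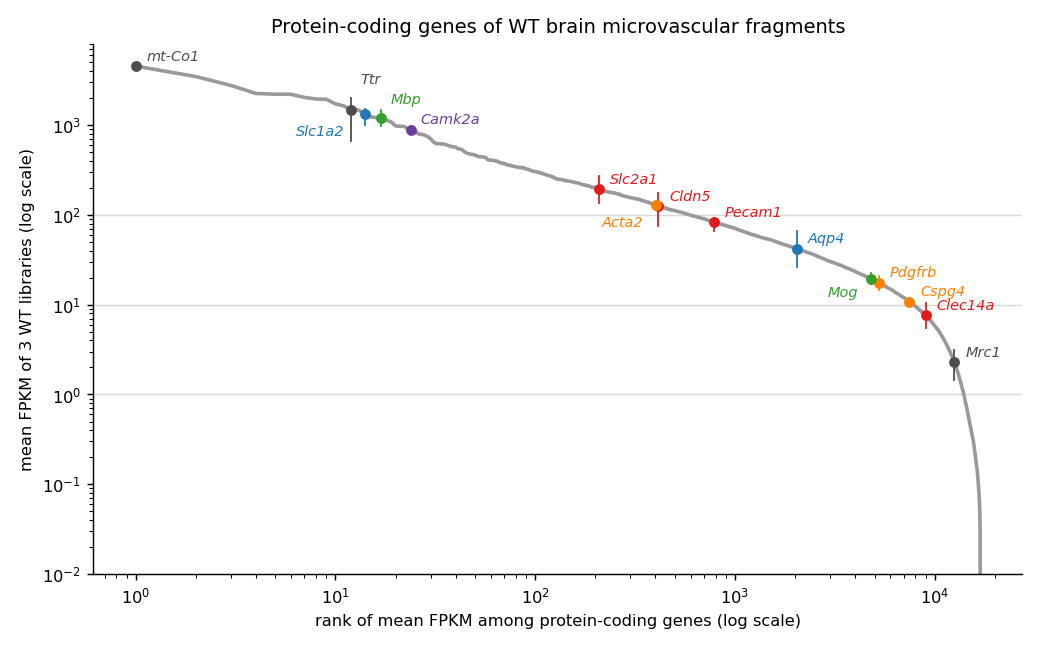
Mean FPKM of the 3 WT libraries (vertical axis, log scale) against rank (horizontal axis, log scale) for protein-coding genes with a mean above 0. Points mark named genes, coloured red for endothelial, orange for mural, blue for astrocytic, green for oligodendrocyte and purple for neuronal genes and dark gray for others, and vertical lines span the 3 libraries. *Slc1a2*, *Mbp* and *Camk2a* lie at ranks 14, 17 and 24, *Slc2a1* and *Cldn5* at ranks 209 and 413.

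The libraries were read against 21 lists of marker genes. The lists were chosen with earlier results of these data known, so they are no independent check of the labelled source. All 24 pan-endothelial genes were at 1 FPKM or more in every library, as were all 14 pericyte, 11 smooth muscle, 9 astrocyte end-foot, 15 astrocyte and 20 neuron genes. The same held for 12756 of all 22199 protein-coding genes. It also held for all 11 oligodendrocyte, 9 choroid plexus, 5 erythroid and 12 immediate early genes, so detection at this level did not set vessel genes apart. In order of the mean of the 3 library medians, the lists ran astrocyte (median 173, 149 and 189.8 FPKM in WT replicates 1, 2 and 3), astrocyte end-foot (46.1, 53.8 and 65.4), neuron (48.1, 45.1 and 52.2), pan-endothelial (31.5, 41.6 and 29.9) and barrier transport (32.9, 36.1 and 27.2). Astrocyte medians lay above all others in every library, and the neuron medians did not overlap the pan-endothelial ones. End-foot and neuron medians overlapped, as did pan-endothelial and barrier transport medians. Below them came oligodendrocyte, immediate early, barrier junction, endothelial transcription factor, smooth muscle, microglia, pericyte, venous, arterial, erythroid, choroid plexus and oligodendrocyte precursor lists, each overlapping the next. The perivascular fibroblast list (4.67, 4.87 and 3.14 FPKM) lay below these, then the perivascular macrophage list (1.43, 3.10 and 1.35), and the leukocyte and other organ lists had medians of 0. Of the 20 neighbouring pairs in the order, 15 overlapped. The listed pan-endothelial, pericyte and smooth muscle genes were all present, beside astrocyte and neuron genes of higher median level. The order of the medians depends on which genes are listed and does not measure the share of each cell type. No library of whole brain or of the tissue left after capture was analysed here, so enrichment over brain tissue was not measured.

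**Figure D2:**
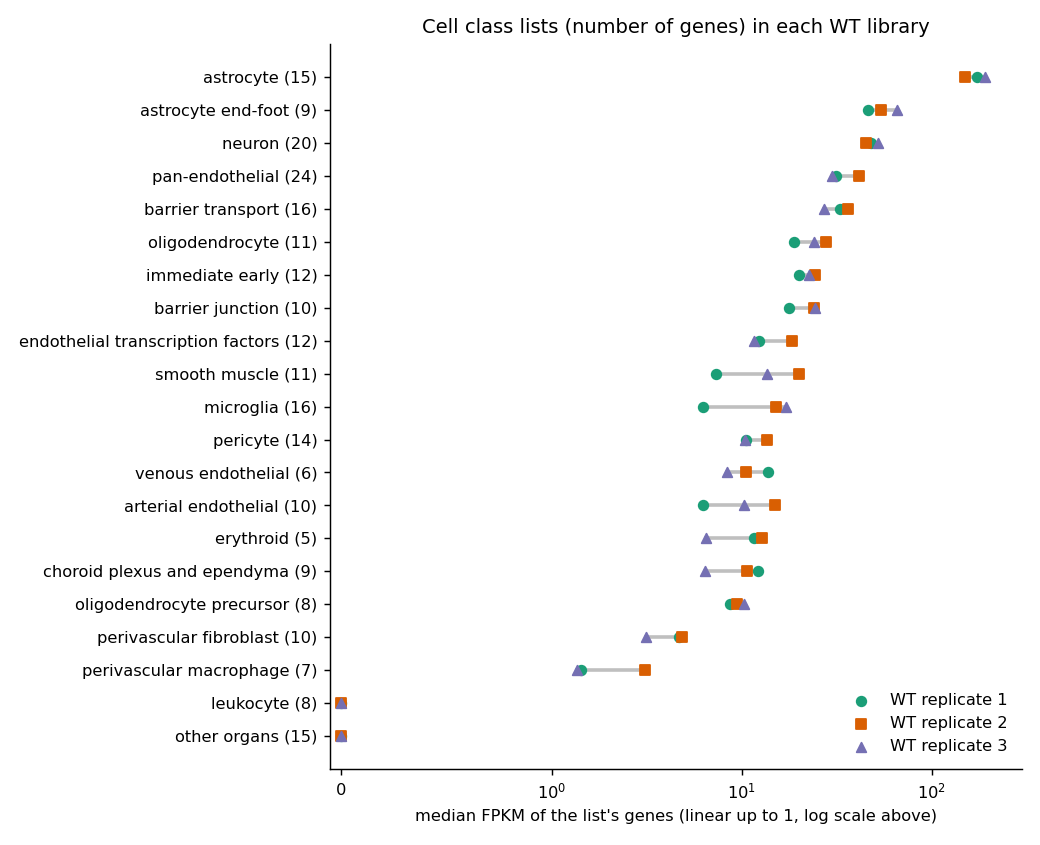
Median FPKM of the genes of each cell class list (horizontal axis, linear up to 1 and log scale above) in each WT library; gray lines span the 3 libraries and the number of genes stands behind each list's name. Astrocyte medians lie between 149 and 189.8 FPKM, pan-endothelial medians between 29.9 and 41.6, and leukocyte and other organ medians at 0.

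Endothelial genes were detected throughout, most of them between 10 and 100 FPKM. Of the 24 pan-endothelial genes, 23 had a mean of at least 10 FPKM, against 35.3% of all protein-coding genes, and 2 of at least 100, against 2.68%. The highest was *Cldn5*, the main claudin of endothelial tight junctions (ENSMUSG00000041378, chromosome 16 from 18776940 to 18778353), listed at 127, 174 and 75.96 FPKM in WT replicates 1, 2 and 3. *Flt1*, a receptor for VEGF, had 93.8, 170.2 and 86.4 FPKM. WT replicate 2 was the highest library for both, and for *Cldn5* the libraries differed 2.297-fold. *Pecam1*, whose protein the beads bind, had 92.8, 91.0 and 65.8 FPKM, with WT replicate 3 lowest, and *Egfl7*, a secreted endothelial protein, had 109, 101 and 72.4 in the same order. *Ly6c1* and *Ly6a*, surface proteins of brain endothelium, had 82.01 ± 23.6 and 68.6 ± 2.05 FPKM. *Ly6a* was the steadiest of the 24, with a CV of 2.99%.

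Receptors and junction proteins of the endothelium followed. The other VEGF receptor of the list, *Kdr*, had 14.1, 41.3 and 22.9 FPKM, the widest spread of the 24 with a ratio of 2.93 between WT replicates 2 and 1. Its ratio to *Flt1* was accordingly uneven, with *Flt1* 6.67, 4.12 and 3.77 times *Kdr*. The angiopoietin receptor *Tek* had 27.6 ± 9.31 FPKM, the related receptor *Tie1* 14.7 ± 3.12, the TGF-beta co-receptor *Eng* 34.9 ± 5.76 and the adrenomedullin receptor partner *Ramp2* 36.1 ± 3.12. *Cdh5*, the cadherin of endothelial adherens junctions, had 32.3, 44.5 and 30.9 FPKM, and *Ptprb*, its phosphatase partner, 38.2, 66.2 and 46.9. Both were highest in WT replicate 2. The junctional adhesion proteins *Esam* and *Icam2* had 45.99 ± 15.4 and 16.4 ± 2.31 FPKM, and the guidance receptor *Robo4* 11.8 ± 1.23.

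Surface mucins and enzymes completed the list. *Podxl*, *Cd34* and *Emcn*, sialomucins of the luminal face, had 61.8 ± 21.9, 23.8 ± 4.42 and 21.2 ± 7.71 FPKM. *Vwf*, the clotting glycoprotein stored in endothelial granules, had 72.97, 70.9 and 36.5 FPKM, with WT replicate 3 well below the other libraries. *Cav1*, the coat protein of caveolae, had 29.4 ± 12.04, and *Nos3*, which makes nitric oxide, 15.2 ± 5.04. The lectin *Clec14a* was the lowest at 7.61 ± 2.61 FPKM. The ETS factor *Erg*, a regulator of endothelial genes, had 28.5, 31.8 and 24.4 FPKM and differed little between mice.

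ETS factors bind a core of GGAA, and promoters of endothelial genes are known for such sites, so the RefSeq promoter windows of GRCm38.p6 (250 bases before to 50 after each start) were searched on both strands for CAGGAAG, for the shorter GGAAG within it, and also for AACAGGAA and for CCGGAAG. Of the 24 pan-endothelial genes, 14 matched, with 20 windows. CAGGAAG stood in 6 of these 20 windows, against 13.3% of all 32851 windows. It was not particular to them: it stood in 5 of 8 leukocyte, 4 of 20 astrocyte and 2 of 19 transport windows, in 1 of 11 windows of endothelial transcription factors and in 0 of 9 arterial, 0 of 10 pericyte and 0 of 17 neuron windows. GGAAG was in 15 of the 20 and in 71.4% of all windows, AACAGGAA in 2 of the 20 and 2.65% of all, and CCGGAAG in 0 of the 20 and 8.86% of all. The match is a description and not a site of binding. The 7 occurrences whose shown stretch lies wholly before the start fell in the promoters of 5 genes that were all measured here. They are shown in gene direction with the motif, or its reverse complement CTTCCTG, in capitals:
Cd34 (chr1:194938669-194938695, plus strand): tacacagtggCTTCCTGccacacttaa
Egfl7 (chr2:26580983-26581009, plus strand): gggagacaaaCAGGAAGgccatctctc
Egfl7 (chr2:26581024-26581050, plus strand): ctggtctttcCTTCCTGaggtgcagct
Egfl7 (chr2:26583774-26583800, plus strand): agaacacacaCAGGAAGtccggcggga
Emcn (chr3:137340894-137340920, plus strand): agaagggtctCTTCCTGttcaaatccc
Robo4 (chr9:37401912-37401938, plus strand): gagggccaggCAGGAAGcatccgtttc
Erg (chr16:95459372-95459398, minus strand): atagaaacctCTTCCTGccattggctg

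The transport genes of the barrier had similar levels. Of 16, 14 had a mean of at least 10 FPKM, against 35.3% of all protein-coding genes. *Slc2a1*, the glucose transporter GLUT1, was the highest with 273, 167 and 137 FPKM. It was highest in WT replicate 1, whereas 13 of the 16 were highest in WT replicate 2. Of all protein-coding genes with a mean of at least 1 FPKM, 31.4% were highest in WT replicate 2. The organic anion carrier *Slco1a4* had 81.8, 132 and 75.4 FPKM, the taurine transporter *Slc6a6* 51.3, 80.8 and 52.96 and P-glycoprotein, *Abcb1a*, 48.2, 65.5 and 47.6. These 3 genes shared WT replicate 2 as the highest library. The efflux pumps *Abcg2* and *Abcc4* had 35.6 ± 4.63 and 15.99 ± 2.46 FPKM. Carriers of amino acids ranged from *Slc7a5* at 46.4 ± 11.6 and its partner *Slc3a2* at 39.1 ± 1.47 down to *Slc7a1* at 11.4 ± 4.62 and *Slc38a5*, a glutamine transporter and the lowest of the list, at 5.89 ± 3.097. The lysophospholipid transporter *Mfsd2a* had 41.3, 22.5 and 14.2 FPKM and followed *Slc2a1* in being highest in WT replicate 1. The transferrin receptor *Tfrc* had 13.2, 35.2 and 24.1 FPKM, with WT replicate 2 highest and WT replicate 1 lowest.

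Among junction genes other than *Cldn5*, 6 of 10 had a mean of at least 10 FPKM, against 35.3% of all protein-coding genes. *Ctnnb1*, beta-catenin, which many cell types share, was the highest at 147 ± 31.4, followed by the scaffold *Tjp1* at 58.2 ± 4.35, occludin, *Ocln*, at 31.9 ± 7.02 and the tricellular junction protein *Lsr* at 29.8 ± 5.93. *Cldn5* exceeded *Ocln* by 3.996, 4.48 and 3.05 times in the 3 libraries. Tricellulin, *Marveld2*, was the lowest at 0.515, 3.31 and 1.17 FPKM, near the floor of counting. Among 12 endothelial transcription factors 10 had a mean of at least 10 FPKM, led by the shear-responsive factors *Klf2* at 27.7 ± 2.07 and *Klf4* at 25.5 ± 6.01, the Wnt effector *Lef1* at 20.9 ± 5.39 and *Gata2* at 27.1, 20.1 and 12.3. *Tal1* was the lowest at 1.72 ± 0.233. The ETS factors *Fli1* and *Ets1* had 12.4 ± 1.34 and 16.8 ± 9.37 FPKM, and the spread of *Ets1* exceeded that of *Fli1*.

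Genes of arteries and veins were lower. Of 10 arterial genes 6 had a mean of at least 10 FPKM, against 35.3% of all protein-coding genes. The ephrin ligand *Efnb2* had 20.1 ± 2.41, the Notch target *Hey1* 18.6 ± 3.92, the semaphorin *Sema3g* 15.1 ± 3.58 and the lymphangiogenic factor *Vegfc* 5.17, 22.2 and 12.4, and *Bmx* was the lowest at 3.72 ± 0.0836. Of 6 venous genes 4 reached 10 FPKM, with *Nr2f2*, a transcription factor of venous identity, at 25.9 ± 4.18, *Vcam1*, an adhesion molecule for leukocytes, at 20.1 ± 5.58 and the ephrin receptor *Ephb4* at 10.3 ± 0.925. The venous gene *Lcn2* had 41.03, 2.71 and 1.72 FPKM, almost all of it in WT replicate 1. *Plvap*, a protein of fenestrated and leaky endothelium, was the lowest of the list at 11.01, 8.46 and 4.91 FPKM, and *Cldn5* exceeded it by 11.5, 20.6 and 15.5 times.

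Mural genes covered a wide range. Of 14 pericyte genes, 8 had a mean of at least 10 FPKM and 1 of at least 100, against 35.3% and 2.68% of all protein-coding genes. *Rgs5*, a regulator of G protein signaling, had 97.6, 125 and 100.3 FPKM in WT replicates 1, 2 and 3, and *Vtn*, vitronectin, 82.4, 75.8 and 59.97. *Pdgfrb*, the receptor that holds pericytes on endothelial PDGF-B, had 17.02, 20.8 and 14.8 FPKM. *Rgs5* exceeded *Pdgfrb* by 6.18 ± 0.553 times, a proportion that varied less between mice than the *Pdgfrb* level did. The transcription factor *Zic1* had 48.8 ± 15.1 FPKM, the adhesion molecule *Mcam* 42.3 ± 10.3, *Notch3* 16.8 ± 2.15, the NG2 proteoglycan *Cspg4* 10.8 ± 0.542 and *Cox4i2* 11.4 ± 3.34. *Zic1*, *Mcam* and *Cspg4* are also known from other brain cells. Below 10 FPKM were *Atp13a5* at 9.96 ± 2.45, *Ndufa4l2* at 7.59 ± 1.59, *Higd1b* at 7.31 ± 1.67 and both subunits of the vascular ATP-sensitive potassium channel, *Abcc9* at 9.36, 7.69 and 6.39 and *Kcnj8* at 9.16, 4.63 and 2.33. Both channel genes were highest in WT replicate 1 and lowest in WT replicate 3. *Anpep*, the aminopeptidase used to stain pericytes, was the lowest of the list at 1.69, 1.49 and 2.63 FPKM.

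The leading contractile genes stood above most pericyte genes. *Acta2*, smooth muscle actin, had 116, 143 and 124 FPKM, *Myl9*, a myosin light chain, 117, 125 and 94.2, *Myh11*, the smooth muscle myosin heavy chain, 43.7, 62.96 and 53.7 and transgelin, *Tagln*, 49.1, 41.7 and 47.2. Their libraries lay within 1.44-fold of each other. Of the 11 smooth muscle genes 6 had a mean of at least 10 FPKM, against 35.3% of all protein-coding genes. The lowest were *Cnn1*, calponin, at 2.24 ± 1.08 and the enteric actin *Actg2* at 1.96 ± 0.827. Genes of perivascular fibroblasts were low with 1 exception: *Ptgds*, prostaglandin D synthase, which meningeal and oligodendroglial cells are also known to express, had 378, 472 and 156 FPKM. *Nov* followed at 10.1 ± 0.928, *Dcn*, decorin, at 7.29 ± 0.507 and the collagen *Col1a2* at 4.87 ± 0.601, and *Lum*, lumican, was the lowest at 0.8901 ± 0.6496.

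**Figure D3:**
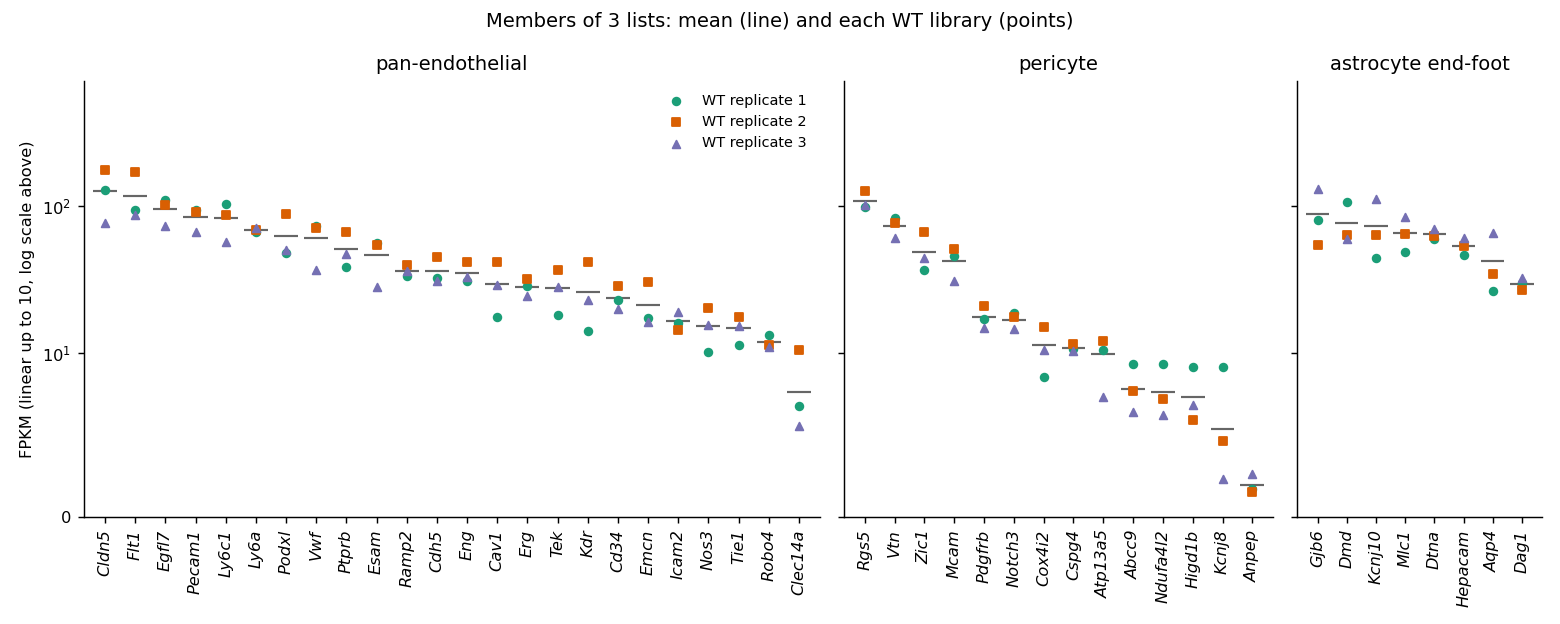
FPKM (vertical axis, linear up to 10 and log scale above) of 24 pan-endothelial, 14 pericyte and 8 of the 9 astrocyte end-foot genes in each WT library, in order of the mean, which a short line marks. WT replicate 2 is the highest for 16 of the 24 pan-endothelial genes and WT replicate 3 for 7 of the 9 end-foot genes. Of all protein-coding genes with a mean of at least 1 FPKM these shares are 31.4% and 30.04%.

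Genes of the astrocyte end-foot had higher medians than endothelial genes in each library. All 9 had a mean of at least 10 FPKM, against 35.3% of all protein-coding genes. *Aqp4*, the water channel concentrated in end-feet, had 26.4, 34.2 and 65.4 FPKM in WT replicates 1, 2 and 3. *Kcnj10*, the potassium channel Kir4.1 that lies beside it, had 44.4, 63.6 and 112, and *Gjb6*, connexin 30, 79.3, 53.8 and 129. WT replicate 3 was the highest library for each of these 3. The membrane protein *Mlc1* had 48.5, 64.1 and 84.3 FPKM and *Hepacam*, which anchors it, 46.1, 53.0 and 60.7, in the same order of mice. In the complex that anchors AQP4, dystrobrevin and dystroglycan were steadier: *Dtna* had 63.7 ± 5.301 FPKM and *Dag1* 29.6 ± 2.73. Dystrophin, *Dmd*, had 105, 63.3 and 58.9 and was the single end-foot gene highest in WT replicate 1. Muscle-type cells of the vessel wall and neurons also express *Dmd* and *Dag1*.

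The wider astrocyte list was the highest of all. Each of its 15 genes had a mean of at least 10 FPKM and 11 of at least 100, against 35.3% and 2.68% of all protein-coding genes. After *Slc1a2*, *Apoe* and *Glul* came the aldolase *Aldoc* at 646 ± 74.2 FPKM. The intermediate filament *Gfap* had 126, 114 and 158 FPKM and the second glutamate transporter *Slc1a3* 177, 219 and 237. *Slc1a2* exceeded *Slc1a3* by 6.23 ± 0.464 times. It exceeded the cell body enzyme *Aldh1l1*, at 35.98 ± 6.73 FPKM, by 38.0 ± 12.1 times. The transcription factor *Sox9* was the lowest at 25.0 ± 6.96. WT replicate 3 was the highest library for 12 of the 15, against 30.04% of all protein-coding genes with a mean of at least 1 FPKM.

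Oligodendrocyte genes split into very high and low ones. *Mbp* and *Mobp* were at 1193 and 772 FPKM, and the myelin enzyme *Cnp* had 50.5, 55.5 and 58.6. *Mog*, a glycoprotein of the outer myelin surface, had 18.7, 22.5 and 17.1 FPKM, and the claudin of myelin, *Cldn11*, 6.88, 7.95 and 11.5. *Mbp* thus exceeded *Mog* by 62.9 ± 20.1 times. *Opalin* was the lowest of the 11 at 2.78 ± 0.458 FPKM, and 8 had a mean of at least 10, against 35.3% of all protein-coding genes. Among 8 genes of oligodendrocyte precursors, which lie along vessels, 4 reached 10 FPKM: the transcription factors *Olig1* at 32.2 ± 4.68, *Sox10* at 14.2 ± 2.43 and *Olig2* at 11.2 ± 1.12 and the receptor *Pdgfra* at 15.2 ± 1.52. The sialidase *Neu4* was the lowest at 2.51, 0.361 and 2.09 FPKM.

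The median neuronal gene lay above the median pan-endothelial gene in each library. Of 20, 17 had a mean of at least 10 FPKM and 8 of at least 100, against 35.3% and 2.68% of all protein-coding genes. After *Camk2a* and *Mtap2* came the vesicle protein *Syt1* with 190.3, 152 and 141 FPKM and *Slc17a7*, the vesicular glutamate transporter of cortex, with 185, 153 and 139. The SNARE protein *Snap25* had 157, 133 and 182 FPKM. *Slc17a6*, the transporter of subcortical neurons, had 4.25 ± 0.423 FPKM, far below *Slc17a7*. Of the inhibitory genes *Gad1* had 35.8 ± 8.94 FPKM, *Gad2* 15.6 ± 3.55 and the vesicular GABA transporter *Slc32a1* 14.1 ± 2.85. *Th*, which makes dopamine precursors, was the lowest at 1.96 ± 0.878. *Camk2a* exceeded *Snap25* by 5.69 ± 0.627 times and *Cldn5* by 6.69, 4.89 and 12.6 times.

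Microglial genes were moderate and macrophage genes low. Of 16 microglial genes 11 had a mean of at least 10 FPKM, against 35.3% of all protein-coding genes. Cathepsin S, *Ctss*, had 68.3, 93.8 and 95.2 FPKM and the complement chains *C1qb* 49.7, 35.96 and 52.6 and *C1qc* 34.8, 30.2 and 28.04. *C1qc* was highest in WT replicate 1, whereas *Ctss* was lowest there. The receptors *Cx3cr1* and *P2ry12* had 9.78, 19.5 and 19.2 and 5.48, 14.3 and 13.1 FPKM, and *Gpr34*, the lowest of the list, 0.512, 5.29 and 5.88. None of the 7 perivascular macrophage genes reached 10 FPKM. The highest were the antigen-presentation genes *Cd74* at 4.38 ± 1.76 and *H2-Aa* at 2.699 ± 1.52, the mannose receptor *Mrc1* at 2.29 ± 0.834 and *F13a1* with 1.45, 3.57 and 1.35, and *Lyve1* was the lowest with 1.08, 0 and 0.147.

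Blood, choroid plexus and other organs served as a check on what else the preparation held. Among all 22199 protein-coding genes, 5294 were at 0 in all libraries. Of 8 leukocyte genes *Ms4a1*, *Ly6g*, *S100a8* and *Nkg7* were at 0 in all libraries, *Cd3e* and *S100a9* were at 0 in at least 1 library, and CD45, *Ptprc*, had 1.71, 2.25 and 1.36. Globin genes of red cells were low: *Hba-a1* had 21.5, 28.3 and 16.2 FPKM, *Hbb-b1* 15.8, 13.9 and 6.51, *Hba-a2* 10.5 ± 2.94 and *Hbb-b2* 2.74 ± 1.12, where the paired copies are near-identical and reads may be split between them. *Alas2*, the heme enzyme of red cells, had 6.96 ± 2.94. Choroid plexus and ependyma genes were all detected. After *Ttr* came autotaxin, *Enpp2*, with 156, 260.1 and 103 FPKM, the folate receptor *Folr1* with 19.2, 38.6 and 14.2 and the potassium channel *Kcnj13* with 19.6, 10.1 and 6.73, and the ciliary factor *Foxj1* was the lowest at 4.12 ± 1.68. Of the 15 genes of other organs 8 were at 0 in all libraries (*Alb*, *Ins1*, *Umod*, *Krt5*, *Krt14*, *Prm1*, *Tnp1* and *Amy2a5*), and the highest were *Acta1* at 2.201 ± 0.247 FPKM, *Sftpc* with 1.48, 2.61 and 0, *Cyp2e1* with 0, 0.473 and 3.099 and *Myh6* with 1.02, 0.388 and 0.1798. *Ins2*, the gene mutated in the other genotype of the study, was listed at 0, 0 and 1.51 FPKM. Among genes at 0 in all libraries, *Ly6g*, *S100a8*, *Prm1* and *Tnp1* have only 336, 392, 469 and 418 nucleotides of exon. Their floor lies well above that of a transcript of 2000 nucleotides, so they may be present at higher levels.

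Immediate early genes, which cells induce within minutes of stimulation or tissue handling, were present at moderate levels. Of 12, 9 had a mean of at least 10 FPKM, against 35.3% of all protein-coding genes. The AP-1 subunit *Jun* had 46.4, 58.5 and 74.3 FPKM, *Jund* 63.3, 39.9 and 37.8 and *Junb* 31.4, 41.2 and 25.98. The orphan receptor *Nr4a1* had 30.1 ± 4.17, *Fos* 28.3 ± 4.75, and the stress factor *Atf3* was the lowest at 3.01 ± 2.42. Their part in the other levels was not tested.

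Summed over whole classes, 24 astrocytic genes (astrocyte and end-foot lists) held 1.46%, 1.57% and 1.79% of the protein-coding FPKM of WT replicates 1, 2 and 3. The 20 neuronal genes held 0.696%, 0.682% and 0.8001%, and 19 oligodendroglial genes 0.526%, 0.555% and 0.718%. The 68 genes of the endothelial lists together (pan-endothelial, transport, transcription factor, arterial and venous) held 0.538%, 0.661% and 0.466%, and 25 mural genes 0.188%, 0.221% and 0.184%. The 23 microglial and macrophage genes held 0.0694%, 0.0993% and 0.108%. The oligodendroglial shares overlapped both the neuronal and the endothelial ones across mice, whereas the lowest neuronal share, 0.682%, lay just above the highest endothelial share, 0.661%. These sums depend on which genes are listed and compare lists of unequal length.

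The 3 libraries differed moderately for most genes. Over the 7834 genes with a mean of at least 10 FPKM, the highest library exceeded the lowest by a median of 1.45 times (quartiles 1.248 and 1.78), and the median CV was 19.1%. The ratio reached 2 in 1269 genes (16.2%), 3 in 303 and 10 in 24; 12 genes had a library at 0, of which 9 had fewer than 500 nucleotides of exon. Genes of higher level varied less: the median ratio was 1.502 between 10 and 30 FPKM, 1.39 between 30 and 100, and 1.29 at 100 or more. For 1268 genes with 1 annotated transcript the spread could be set beside counting error. Their median CV was 15.7%, where counting alone gave 11.7%, and in 27.3% of them the CV was at least 2 times that of counting. In 32.7% it was at or below it.

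**Figure D4:**
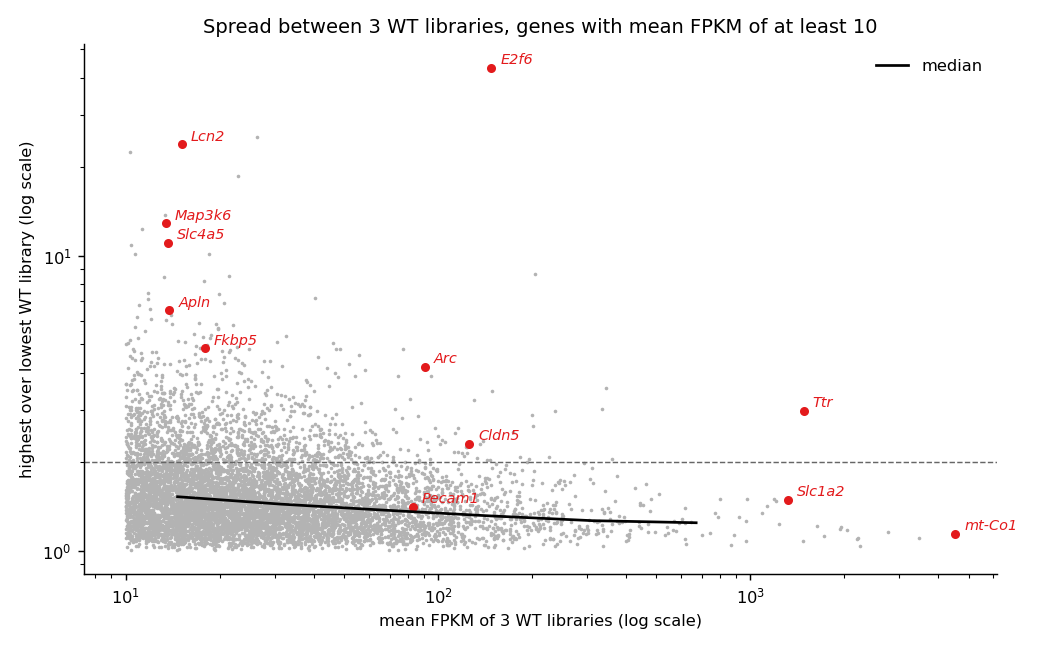
Ratio of the highest to the lowest WT library (vertical axis, log scale) against mean FPKM (horizontal axis, log scale) for protein-coding genes with a mean of at least 10 FPKM and no library at 0. The black line is the median in bins of level, the dashed line marks a ratio of 2, and red points mark named genes. The median falls from 1.502 between 10 and 30 FPKM to 1.29 at 100 FPKM or more, and *E2f6* stands highest at 43.2.

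By list, the spread was uneven, against 16.2% of all genes with a ratio of at least 2. It was smallest for oligodendrocyte precursor, smooth muscle and neuron genes, with median ratios of 1.28, 1.28 and 1.37, and 0 of 17 neuron and 0 of 15 astrocyte genes reached 2. Pan-endothelial genes had a median ratio of 1.73, and 5 of 23 reached 2. Transport genes had 1.83 (4 of 14), end-foot genes 1.74 (3 of 9), microglial genes 1.99 (5 of 11) and choroid plexus genes 2.72 (5 of 5). Pericyte genes had 1.39, with 0 of 8 reaching 2.

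The genes furthest apart between mice were mostly ones in which 1 library stood alone. *E2f6* (ENSMUSG00000057469, chromosome 12 from 16817771 to 16833549) is an E2F family repressor. It was listed at 9.75, 421 and 12.9 FPKM in WT replicates 1, 2 and 3, so WT replicate 2 alone was high. *Lcn2*, lipocalin 2, had 23.8 times more in WT replicate 1 than in WT replicate 3, and *Map3k6*, a stress kinase, had 33.8, 2.63 and 3.87. *Ccdc62* with 24.8, 4.74 and 2.45 shared this excess in WT replicate 1. The bicarbonate cotransporter *Slc4a5*, known from choroid plexus, had 7.17, 30.9 and 2.79 FPKM and *Hps3*, which overlaps an exon of *Cp*, 3.61, 26.9 and 4.797, both highest in WT replicate 2 together with *Gm10125*. WT replicate 3 stood above the others for the inositol phosphate kinase *Ip6k1* (51.6, 113 and 447), the endothelin-converting enzyme *Ece1* (33.1, 38.01 and 160.0) and *Zfyve19* (12.8, 14.5 and 56.1). The peptide ligand *Apln* had 4.39, 8.29 and 28.7 FPKM and the activity-regulated gene *Arc* 41.3, 57.7 and 173, both also highest there. *Zfp748* had 33.2, 1.74 and 43.7, lowest in WT replicate 2, as did *Ranbp3l* with 20.1, 1.62 and 12.3 and *Ccdc45* with 29.6, 2.15 and 8.34; *A930038C07Rik* had 2.32, 43.1 and 23.2. The 10 genes of largest ratio counting zeros were *Gm10337*, *B230307C23Rik*, *Gm10736*, *Gm10774*, *Gm10135*, *0910001L09Rik*, *Ptprv*, *Gm10322*, *E130116L18Rik* and *Gm17349*, each at 0 in at least 1 library. At the other end, *Wac* had 74.8, 74.5 and 74.6 FPKM and *Cebpg* 38.8, 38.6 and 38.6. *Mal2*, *Fam73a*, *Ankrd11*, *Ranbp2*, *Cadps2*, *2400003C14Rik*, *Praf2* and *Klhl11* likewise differed by at most 1.013-fold between libraries, and among 7834 genes some must lie this close.

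Several cell class lists had most of their genes highest, or lowest, in the same library. Over the 13989 genes with a mean of at least 1 FPKM, WT replicate 1 was the highest library for 38.6%, WT replicate 2 for 31.4% and WT replicate 3 for 30.04%, and they were the lowest for 33.1%, 27.4% and 39.5%. WT replicate 2 was the highest for 16 of 24 pan-endothelial and 13 of 16 transport genes, and the median gene of these lists lay 0.41 and 0.49 above the mean of the other libraries on the log2 scale. WT replicate 3 was the lowest for 13 of 24 pan-endothelial and 9 of 14 pericyte genes and the highest for 12 of 15 astrocyte and 7 of 9 end-foot genes. The median astrocyte gene lay 0.29 above the other libraries there and the median pan-endothelial gene at -0.31. WT replicate 1 was the lowest for 10 of the 24 pan-endothelial genes, with a median of -0.21. Of the 16 transport genes, 8 were lowest in WT replicate 1 and 8 in WT replicate 3. Of 20 neuron genes 8, 3 and 9 were highest in WT replicates 1, 2 and 3, and 3, 10 and 7 were lowest there.

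Among lists with at least 5 genes at a mean of 1 FPKM, the largest shifts belonged to microglia, choroid plexus and red cells. WT replicate 1 was the lowest for 13 of 16 microglial genes, with a median of -1.11 on the log2 scale against the other libraries. WT replicate 3 was the lowest for 9 of 9 choroid plexus genes, with a median of -1.09, and for 5 of 5 erythroid genes, with -1.19. *Ttr*, among the 30 highest genes, was one of them. The genes of a list are read in the same 3 libraries, so they are not replicates of each other. What these differences rest on was not tested.

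**Figure D5:**
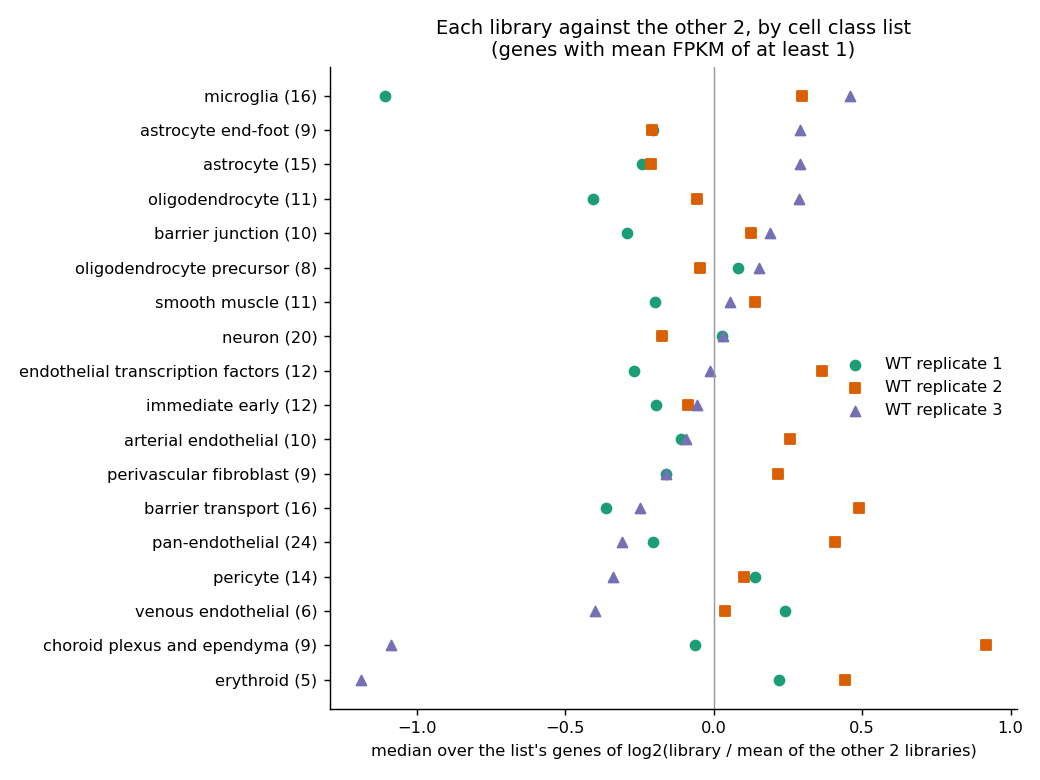
Median over the genes of each list (number of genes with a mean of at least 1 FPKM behind the name) of the log2 ratio of a WT library to the mean of the other 2 libraries (horizontal axis). WT replicate 1 lies at -1.11 for microglia, and WT replicate 3 at -1.09 for choroid plexus and ependyma and -1.19 for erythroid genes, while WT replicate 2 lies at 0.41 for pan-endothelial genes.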

How the data were processed

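RNA from brain microvascular fragments of 3 WT mice was analysed. The authors depleted ribosomal RNA, made stranded libraries, mapped reads to NCBIM37 and removed duplicates; the submitters' processing notes name TopHat2 2.0.4, Picard 1.92 and Cufflinks 2.2.1. Per the file headers, each deposited file holds the FPKM of 1 mouse, by Ensembl gene. The program that made them and the Ensembl release are not given in the sources used here. Removing duplicates can lower the highest genes, and dividing by length can raise short ones.

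Of 37982 identifiers, 37197 matched the GENCODE vM1 annotation of NCBIM37 and 785 did not; 22334 were protein-coding, and those sharing a symbol were summed to 22199 symbols. Older symbols were matched through RefSeq synonyms. Python 3.11.15 with numpy 2.4.6, pandas 2.3.3 and matplotlib 3.10.9 was used. Means, SD, CV, ranks and list medians were computed from the deposited FPKM values without rescaling, and no test was run. Mean FPKM of at least 1 counted as detected and of at least 10 as the level for measuring spread.

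Depth was not listed. FPKM of genes with 1 annotated transcript and over 600 nucleotides of exon was compared with whole multiples of 1 fragment; 97.6%, 97.9% and 97.5% of low values lay within 0.05 of one in WT replicates 1, 2 and 3, at a scale of 1166146, 1315749 and 2852617 fragments, with lengths shortened by 224, 220 and 228 nucleotides. The estimate and the ratios were run on simulated data, which checks the computation only. The simulated fragments were drawn from the same formula that the estimate inverts. The ratio check used copies of a single library with some values multiplied. Neither can show that the deposited values follow that formula. Nothing states whether the mice came from separate litters or preparations, so the spread is that between these 3 samples, which may be partly technical.

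The genes named were the 30 of highest mean, in each list the 4 highest, the lowest and those at 0 in all mice, all pan-endothelial, pericyte and end-foot genes, the 10 of largest and of smallest ratio between libraries, and the 5 furthest above the other mice in each mouse; genes named beyond these, to set ratios or roles beside them, were chosen after their values were seen. The lists and members were chosen with earlier results of these data known. Alternatives were scaling to equal sums or by median ratios, genes of at least 500 nucleotides, the highest identifier per symbol, geometric means, other filters and leaving out each mouse. The files of Ins2AKITA mice were not used here. A few genes that this rule names are not reported here.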

Additional observations from a re-analysis of the deposited data

How the results depend on the processing

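Of 294 level, list and spread values compared, 278 stayed within 1 SD, or within 1.5 times for counts. The SD was that between mice for levels and that between pairs of libraries for the spread. Most alternatives could hardly move the levels: the median-ratio factors lay between 0.964 and 1.03. The length and identifier settings left almost all list medians unchanged. The count of 278 is therefore no measure of stability. Leaving a mouse out moves a mean of 3 by less than its SD by construction, so that alternative says little about levels. The leukocyte median was 0.0530 FPKM when only genes of at least 500 nucleotides were kept. The spread depended on the set of genes. With genes of a mean of at least 1 FPKM, 4251 genes (30.4%) had a ratio of at least 2 and the median ratio was 1.60; with genes above 0 in every library these were 4345 genes, 30.4% and 1.60. Over only 2 of the 3 mice, the count ranged from 487 to 838 genes, the share from 6.29% to 10.8% and the median ratio from 1.22 to 1.30, as fewer libraries give a smaller range; without WT replicate 1 the count was 487, without WT replicate 2 it was 838 and without WT replicate 3 it was 530. Under both scalings the lists named as highest or lowest in a library kept counts within 1.5 times. No paired analysis was possible because only 1 genotype was used. The depth, between 1166146 and 2852617 fragments, limits genes near 1 FPKM, and with 3 mice and 1 library each the SD is itself imprecise. Spread between capture, mouse and library preparation cannot be told apart.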

Other observations

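The gene groups described next were put together after values had been seen, so their counts are descriptions only. Genes known as targets of the glucocorticoid receptor were picked after some of them had stood out in WT replicate 1, and 19 of 20 were highest in that library, against 38.6% of the 13989 protein-coding genes with a mean of at least 1 FPKM, a level that all 20 reached. In 10 of them it was at least 2 times both other libraries, against 4.20% of those 13989 genes. Since the list was picked for this pattern, nothing is read from either count. *Fkbp5*, a chaperone that restrains the receptor, had 37.1, 8.99 and 7.67 FPKM in WT replicates 1, 2 and 3, and *Sgk1*, a kinase, 78.96, 45.7 and 16.4. *Tsc22d3*, also known as GILZ, had 80.6, 20.9 and 42.1, the clock gene *Per1* 74.7, 37.8 and 33.6 and *Txnip* 114, 28.8 and 24.8. The cell cycle inhibitor *Cdkn1a* had 36.1, 6.69 and 6.91 and the lipid droplet protein *Plin4* 15.5, 4.66 and 2.22. The exception was *Pdk4*, with 6.57, 9.83 and 12.1. The barrier transport gene *Mfsd2a* and the venous gene *Lcn2* were among the 20.

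Messenger RNAs known to be carried into dendrites ranked high: the median rank of 9 was 69. The scaffold *Dlg4* (PSD-95) had 353, 372 and 458 FPKM, *Ppp1r9b* (spinophilin) 448, 448 and 519, *Shank1* 322, 363 and 398 and *Ddn* (dendrin) 380.3, 328 and 414. For 8 of the 9 WT replicate 3 was the highest library, against 30.04% of genes with a mean of at least 1 FPKM. *Arc*, the activity-regulated gene of the group, had a highest library 4.199 times the lowest. Of other genes induced by neuronal activity, *Egr4* had 3.58, 12.7 and 8.99 FPKM, *Npas4* 5.33, 12.2 and 6.56 and *Egr3* 28.6, 26.1 and 32.6, and the first pair were highest in WT replicate 2. Among messages known from myelin processes, *Car2* had 44.4, 67.3 and 93.9 FPKM and *Cryab* 42.2, 56.5 and 75.05. In this group 5 of 5 were highest in WT replicate 3, against 30.04% of genes with a mean of at least 1 FPKM. The group includes *Mbp* and *Mobp*, already named as highest there. Of the 11 genes of the oligodendrocyte list, 6 were highest in WT replicate 3.

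Genes of the vascular basement membrane were led by *Sparc*, a collagen-binding protein, with 394, 292 and 336 FPKM. The collagen IV chains *Col4a2* and *Col4a1* had 113, 73.9 and 59.4 and 48.4, 37.9 and 28.6 FPKM and agrin, *Agrn*, 45.7, 55.8 and 40.1. The laminin chains *Lama4* and *Lama5* had 8.66 ± 2.29 and 10.3 ± 1.496 FPKM, *Lama2* 5.91 ± 1.42 and *Lamb2* 30.5 ± 6.63. *Lamb1* had 18.1, 6.09 and 5.86, with WT replicate 1 far above the others. Of the 13 genes 7 were highest in WT replicate 1, against 38.6% of genes with a mean of at least 1 FPKM.

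Ligands and receptors of vessel signaling could be read in the same libraries. *Vegfa* had 64.3, 66.3 and 57.5 FPKM and was steadier than its receptors *Flt1* and *Kdr*. *Pdgfb*, the endothelial ligand of *Pdgfrb*, had 13.99, 31.5 and 17.9, and *Angpt1* and *Angpt2*, ligands of *Tek*, had 3.27 ± 0.6996 and 4.33 ± 0.853. The Wnt ligands *Wnt7b* and *Wnt7a* had 10.1, 11.4 and 16.6 and 1.45, 2.57 and 10.8, and *Gpr124*, a co-receptor for them, 11.2 ± 1.67. *Aplnr*, the receptor of *Apln*, had 0.513, 0.454 and 0 FPKM, below the level of 3 fragments in a transcript of 2000 nucleotides. For 13 of the 18 genes of this group with a mean of at least 1 FPKM WT replicate 2 was the highest library, against 31.4% of all genes at that level, and several of the 18 are also members of the endothelial lists.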
